A study of Arabidopsis thaliana with 14 samples.

Results

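The genes described here lie on the mitochondrial chromosome of Arabidopsis thaliana and encode respiratory chain subunits, cytochrome c maturation factors, a maturase and a protein translocase. They were taken as every probe set that the probe annotation assigns to a single mitochondrion-encoded gene whose symbol begins with nad, ccb, ccm, cox or orf, or is cob, matR, mttB or a numbered atp. This gave 23 probe sets for 16 genes, out of 13513 probe sets for 13350 singly named genes on the array. By role they were 15 probe sets for complex I (nad1, nad2, nad4, nad4L, nad5, nad6, nad7 and nad9), 2 for complex IV (cox1 and cox2), 4 for cytochrome c maturation (ccb203, ccb206, ccb382 and ccb452), 1 for matR and 1 for orfX. RefSeq's gene table (assembly TAIR10.1) lists 33 protein-coding genes on this chromosome. It holds all 23 probe sets' symbols, and gives ccb382 as ccmFN1, ccb203 as ccmFN2, ccb206 as ccmB, ccb452 as ccmFC and orfX as mttB. No singly named probe set was found for cob, for an atp gene or for cox3, so complexes III and V were not covered by these members.

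Whole wild-type Col-0 seedlings were measured on 14 ATH1 GeneChip arrays, an Affymetrix 3' expression array, in 7 groups of 2. On day 6 after germination, seedlings in 0.5x MS solution were given compound 7606596 or compound 5929745 at 50 µM and collected 3 h or 12 h later. Untreated seedlings were collected at 3 h, at 12 h and, before any compound was added, at 0 h. The series title speaks of an albino chemical, both compounds are known here by these code names only, and the labels mention no solvent in the untreated medium. The design text speaks of 2 independent sets of arrays, and no label says whether replicates came from separate cultures. The p-values measure only the spread between these arrays, which may be technical.

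Plant mitochondria keep a small genome that encodes core subunits of the respiratory complexes, while most of their proteins are encoded in the nucleus and imported. Electrons pass from complex I through complex III and cytochrome c to complex IV, and the proton gradient that results drives the ATP synthase, complex V. Cytochromes c become functional only after heme is attached by the Ccm factors, several of which remain mitochondrion-encoded in plants. Many plant mitochondrial transcripts contain group II introns, some joined in trans from separate precursors, and poly(A) tails on these RNAs mark them for decay. Standard Affymetrix labelling starts from poly(A) tails, so a signal here need not follow the total amount of a mitochondrial transcript.

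Values are MAS5 signals, a linear brightness that the authors scaled on each array. The 18 probe sets of 13 genes whose mean signal over all arrays reached the 30th percentile of the array (42.3) were tested. Changes are differences of log2(signal + 16) with standard errors from limma, which was fitted over 15922 probe sets. A probe set was called at a Benjamini-Hochberg adjusted p under 0.05 over all of them. The 5 probe sets below this minimum were ccb203, nad7, nad2 and nad1 257327_at and 257329_at, with mean signals of 30.1, 40.2, 22.5, 37.5 and 12.5. Of the 23, 19 lay below the median mean signal of the array. By the array's naming, an ID ending in _s_at marks probes that match more than one transcript, which applies to the probe sets of matR, orfX, ccb452 and nad6 and to nad5 257338_s_at. Brightness depends on the probes, so the level of one probe set is not set against another's. Among the 18, the standard errors of the changes between groups ran from 0.17 to 0.34, with a median of 0.24, against a median of 0.16 over all 15922.

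**Figure D1:**
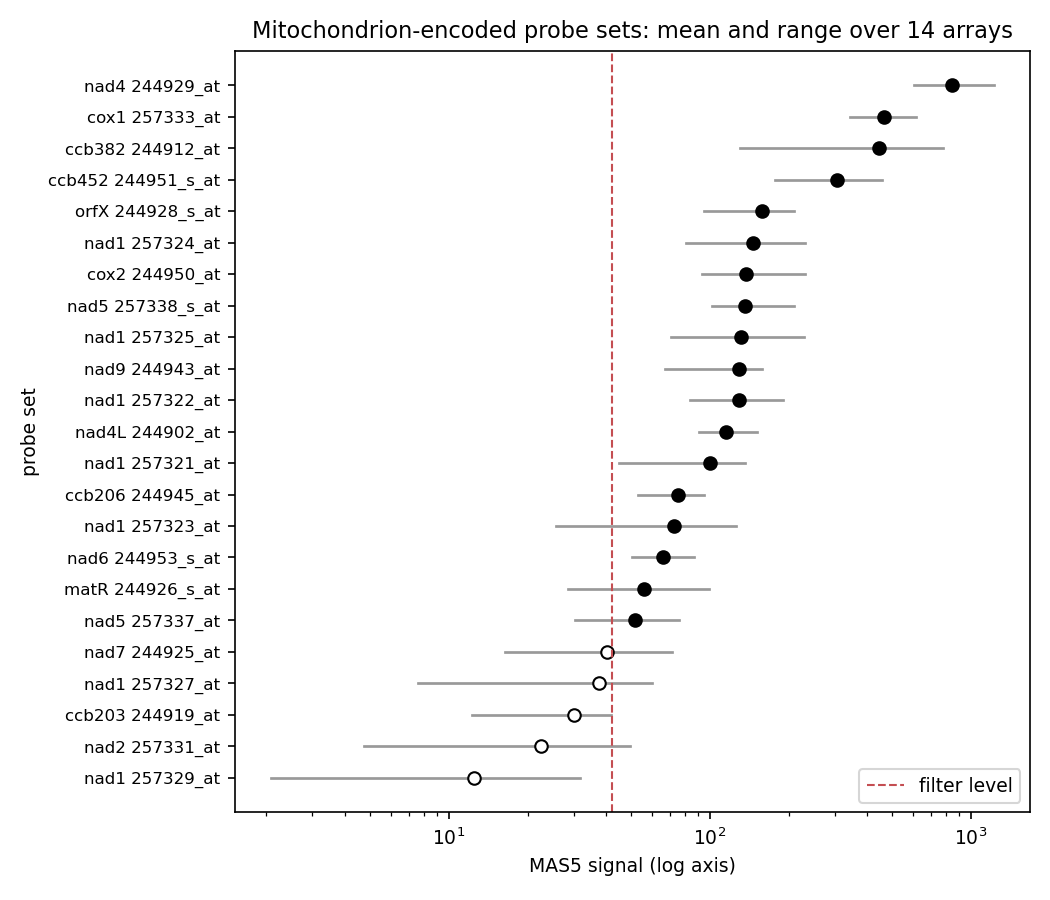
Mean MAS5 signal over 14 arrays (filled point where tested, open where below the minimum) and the lowest and highest array (line) of each of the 23 mitochondrion-encoded probe sets, on a log axis, with the minimum of 42.3 as a dashed line. The highest mean was that of nad4 at 841.5, and 5 probe sets lay under the minimum.

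One feature of the arrays touches every comparison with untreated seedlings of 3 h and 12 h. The poly-A spike-in controls, RNAs added to each sample before labelling, averaged 5.52 to 6.19 on the log2 scale on the 10 arrays of treated and 0 h seedlings, against 6.82 to 7.35 on the 4 arrays of untreated seedlings of 3 h and 12 h. The signal for 25S ribosomal RNA was 289.6 to 850.3 on those 10 arrays and 183.6 to 277.0 on those 4. In both measures the ranges did not overlap. An effect of a compound and this difference between arrays cannot be told apart in the comparisons with untreated seedlings of the same time. Nor can an effect of time and this difference be told apart in untreated seedlings of 3 h or 12 h against 0 h. Among the 4 untreated arrays, the spike-in average was 6.82 and 6.98 at 3 h and 7.35 and 7.25 at 12 h. The array's hybridization controls averaged 10.77 and 10.82 on the log2 scale at untreated 12 h, against 11.07 to 11.48 on all other arrays. Time and these differences cannot be told apart in untreated 12 h against 3 h either. Median signals ran from 152.0 to 168.8, and the log2 signals of the 2 arrays of a group correlated across probe sets with r from 0.983 to 0.989. Of the tissue markers, rubisco activase (AT2G39730), a leaf protein, had signals from 19190 to 36170, and the root hair expansin gene AT1G12560 had signals from 43.5 to 122.9. No other listed marker of shoot, root or dry seed had a singly named probe set. The mean signal of AT1G12560 lay at the 38.7th percentile of the array. In whole seedlings, fewer cells of a type and less RNA per cell cannot be told apart.

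Of the 18 tested members, only ccb382 was called when a compound was set against untreated seedlings of the same time, and only at 3 h, with both compounds. With 7606596 at 3 h, 1 of 18 was higher and 0 lower, where 5.02% of all tested probe sets were called. With 5929745 at 3 h it was again 1 higher and 0 lower, where 1.15% of all were called. At 12 h, 0 of 18 were called by limma with 7606596, where 1.54% of all were called, and 0 of 18 with 5929745, where 1.4% of all were called. An unadjusted p under 0.05 was reached at 3 h by 5 members with 7606596 and by 1, ccb382, with 5929745. Those with 7606596 were ccb382, which was higher, and matR (−0.74), nad4 (−0.50) and a probe set each of nad1 (−0.75) and nad5 (−0.64). These last were lower and not called. At 12 h that level was reached by 3 members with 7606596 and by 5 with 5929745. The share of all probe sets at that unadjusted level was not counted, here or below, so member counts at that level have no background. The median change of the 18 was −0.10 and 0.07 with 7606596 at 3 h and 12 h, and 0.02 and 0.07 with 5929745, beside medians from −0.02 to −0.01 over all probe sets. The counts changed with 1 array left out in 2 cases. Without replicate 2 of untreated 3 h, nad5 was called beside ccb382 for 7606596 at 3 h, giving 2, and without replicate 2 of untreated 12 h, nad4 was called for 5929745 at 12 h, giving 1.

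Over time, the called members were ccb382, ccb452, matR and 3 of the nad1 probe sets. Comparisons of untreated seedlings with 0 h cross the spike-in difference between arrays. The untreated arrays of 12 h and 3 h also differ from each other in their controls. In untreated seedlings, 1 was higher (matR) and 1 lower (ccb382) at 3 h relative to 0 h, where 12.1% of all probe sets were called. At 12 h relative to 0 h, 3 were higher (ccb452 and nad1 257323_at and 257325_at) and 1 lower (ccb382), where 35.1% of all were called. At 12 h relative to 3 h, 3 were higher (ccb452 and nad1 257322_at and 257325_at) and 1 lower (matR), where 34.2% of all were called. Relative to 0 h, 0 of 18 were called by limma at 3 h with 7606596 (7.66% of all, 0 members at an unadjusted p under 0.05) or with 5929745 (9.68% of all, 1 member). At 12 h, 2 were higher and 1 lower with 7606596, where 28.7% of all were called, and 3 higher and 1 lower with 5929745, where 29.5% of all were called. Most of these calls ended with 1 array left out. Without replicate 1 of 0 h, the counts were 1 for untreated 3 h, 2 for untreated 12 h, 1 for 7606596 at 12 h and 0 for 5929745 at 12 h. For untreated 12 h against 0 h and against 3 h, 1 member each was called without replicate 1 of untreated 12 h. Leaving out replicate 1 of 7606596 at 12 h left 1, and leaving out either replicate of 5929745 at 12 h left 2.

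The gene ccb382 encodes the N-terminal part of CcmF, which in plants is split over several genes and takes part in heme attachment to apocytochrome c. Its signal was 652.2 and 467.7 in seedlings given 7606596 for 3 h, 704.4 and 630.0 in seedlings given 5929745 for 3 h, and 129.6 and 240.4 in untreated seedlings at 3 h. All 4 treated arrays lay above both untreated arrays. The means were 559.9 ± 130 with 7606596 and 667.2 ± 52.6 with 5929745, against 185.0 ± 78.4 in untreated seedlings (SD, n = 2 each). Relative to untreated seedlings at 3 h, ccb382 was 1.56 ± 0.23 higher on the log2 scale with 7606596, or 2.94-fold (limma adjusted p = 0.000385). With 5929745 it was 1.82 ± 0.23 higher, or 3.53-fold (limma adjusted p = 0.000351). Both values share the same untreated arrays, which have the higher spike-in level. With each of the arrays involved left out in turn, the change stayed called and lay between 1.15 and 1.97 for 7606596 and between 1.41 and 2.23 for 5929745.

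At 12 h the signal of ccb382 was 407.6 and 353.9 with 7606596, 395.9 and 419.7 with 5929745, and 289.1 and 201.2 in untreated seedlings. Treated and untreated arrays again did not overlap, but the changes of 0.62 (limma adjusted p = 0.214) and 0.72 (limma adjusted p = 0.134) were not called. The arrays of ccb206, nad6 and orfX also did not overlap with untreated ones at 12 h with either compound, and none of these genes was called. The share of all probe sets without overlap was not counted, here or elsewhere, so a lack of overlap has no background. For ccb382, the difference between the 12 h and the 3 h effect was −0.94 for 7606596 and −1.10 for 5929745, and neither was called (limma adjusted p = 0.268 and 0.199). In untreated seedlings, ccb382 at 12 h was 0.41 above 3 h (limma adjusted p = 0.177), and 0.82 and called without replicate 2 of 3 h (limma adjusted p = 0.015).

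The 0 h arrays share the lower spike-in level with the treated arrays. Untreated seedlings had ccb382 signals of 779.7 and 566.8 at 0 h, 129.6 and 240.4 at 3 h, and 289.1 and 201.2 at 12 h. Relative to 0 h, ccb382 fell by 1.82 ± 0.23 on the log2 scale in untreated seedlings at 3 h (limma adjusted p = 4.99e-05) and by 1.40 ± 0.23 at 12 h (limma adjusted p = 9.67e-05). In treated seedlings at 3 h it differed from 0 h by −0.26 with 7606596 (limma adjusted p = 0.607) and by 0.00 with 5929745 (limma adjusted p = 0.998), neither called. At 12 h it fell by 0.78 ± 0.23 with 7606596 (limma adjusted p = 0.0148) and by 0.68 ± 0.23 with 5929745 (limma adjusted p = 0.0306). Of the 4 treated arrays of 3 h, 3 lay between the 2 arrays of 0 h and 1 lay below them, and both untreated arrays of 3 h lay below all of these.

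The 2 calls at 12 h rested on single arrays. With replicate 1 of 0 h left out, the change was −0.56 with 7606596 (limma adjusted p = 0.172) and −0.46 with 5929745 (limma adjusted p = 0.268). Without replicate 2 of 7606596 at 12 h it was −0.68 (limma adjusted p = 0.0982). Without replicate 1 or replicate 2 of 5929745 at 12 h it was −0.64 or −0.73 (limma adjusted p = 0.117 and 0.0738). Over all arrays, ccb382 was at 353.9 to 779.7 on the 10 arrays of treated and 0 h seedlings and at 129.6 to 289.1 on the 4 arrays with the higher spike-in level. The part of this array difference in the ccb382 values was not tested.

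**Figure D2:**
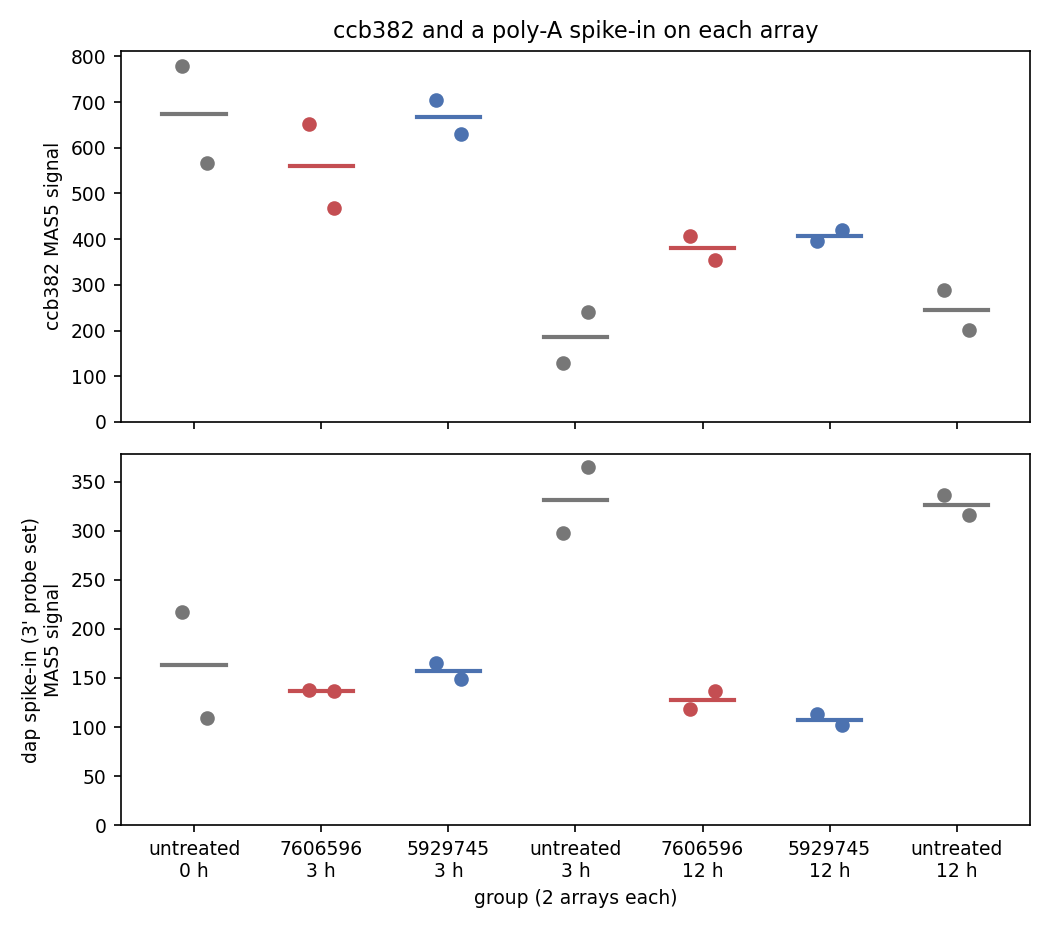
MAS5 signal of ccb382 (upper panel) and of the 3' probe set of dap, a poly-A spike-in control (lower panel), on each of the 2 arrays of every group, with the group mean as a bar. The 4 arrays of untreated seedlings at 3 h and 12 h have the lowest ccb382 signals (129.6 to 289.1) and the highest dap signals (297.3 to 364.7).

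The other tested factors of cytochrome c maturation showed no called change with a compound. The gene ccb452 encodes the C-terminal part of CcmF. Its signal at 3 h was 241.8 and 178.4 with 7606596, 248.3 and 223.4 with 5929745, and 287.3 and 231.6 in untreated seedlings, and at 12 h it was 418.7 and 385.2, 419.0 and 371.8, and 457.2 and 315.1 in the same order. Treated and untreated arrays overlapped at 12 h in both comparisons, and the 4 changes lay between −0.29 and 0.08 on the log2 scale. For ccb206, the membrane subunit CcmB of an ABC transporter of this pathway, the 4 changes lay between −0.03 and 0.28 (limma adjusted p from 0.665 to 0.967). The other N-terminal CcmF gene, ccb203, was below the minimum signal.

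At 12 h against 0 h, ccb452 moved the other way from ccb382, while between untreated 3 h and 12 h both changes were positive. In untreated seedlings its signal was 235.6 and 264.0 at 0 h, 287.3 and 231.6 at 3 h, and 457.2 and 315.1 at 12 h. All 6 arrays of 12 h, treated or not, lay above all 8 arrays of 0 h and 3 h. Relative to 0 h, it rose at 12 h by 0.65 ± 0.18 with 7606596 (limma adjusted p = 0.0107), by 0.63 ± 0.18 with 5929745 (limma adjusted p = 0.0131) and by 0.58 ± 0.18 in untreated seedlings (limma adjusted p = 0.019). Untreated seedlings at 12 h were also 0.53 ± 0.18 above those at 3 h (limma adjusted p = 0.0308).

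Single arrays carried the ccb452 calls too. When replicate 1 of 0 h was left out, the changes at 12 h were 0.58 with 7606596, 0.55 with 5929745 and 0.50 in untreated seedlings (limma adjusted p = 0.0821, 0.0953 and 0.117). When replicate 1 of the 12 h group itself was left out they were 0.60, 0.55 and 0.32 in that order (limma adjusted p = 0.0716, 0.0921 and 0.291). The untreated change between 12 h and 3 h was 0.38 without replicate 2 of 3 h and 0.27 without replicate 1 of 12 h (limma adjusted p = 0.218 and 0.376).

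Complex I, through which electrons from NADH enter the chain, was measured by 11 of its 15 probe sets, and none was called with either compound at either time. The brightest was nad4, a proton-pumping membrane subunit. Its signal at 3 h was 709.4 and 629.4 with 7606596, 935.5 and 705.0 with 5929745, and 1041 and 875.3 in untreated seedlings. At 12 h it was 984.1 and 842.9 with 7606596, 604.5 and 667.9 with 5929745, and 1216 and 849.3 in untreated seedlings, beside 762.0 and 958.7 at 0 h. The arrays of 7606596 at 3 h and of 5929745 at 12 h lay below all untreated arrays of their time, and those of the other 2 treated groups overlapped them.

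None of the nad4 changes was called. They were −0.50 with 7606596 at 3 h (limma adjusted p = 0.103), −0.23 with 5929745 at 3 h (0.562), −0.16 with 7606596 at 12 h (0.753) and −0.66 with 5929745 at 12 h (0.0651, all adjusted p from limma). Without replicate 2 of untreated 12 h, the last was −0.92 and called (limma adjusted p = 0.0456). Seedlings given 7606596 were 0.51 above those given 5929745 at 12 h, again not called (limma adjusted p = 0.309).

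A probe set of nad5, another membrane subunit, also lay near the threshold. The signal of nad5 257338_s_at was 102.3 and 113.3 in seedlings given 7606596 for 3 h and 209.6 and 148.3 in untreated seedlings at 3 h, without overlap. The change was −0.64 (limma adjusted p = 0.0748), and it was −0.87 and called without replicate 2 of untreated 3 h (limma adjusted p = 0.0493). With 5929745 at 3 h it was −0.32, and at 12 h the changes were 0.31 and 0.06 for 7606596 and 5929745. Between untreated 12 h and 3 h, 257338_s_at changed by −0.49 (limma adjusted p = 0.0672), and by −0.72 and called without replicate 2 of 3 h (limma adjusted p = 0.028). The second nad5 probe set, 257337_at, had changes between −0.17 and 0.10 in the same 4 comparisons.

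The remaining subunits gave no called change with a compound. For nad6 the 4 changes lay between −0.48 and −0.14, for nad4L between −0.48 and 0.23, and for nad9 between 0.13 and 0.42. The nad6 arrays of each treated group lay below both untreated arrays of their time, yet the smallest limma adjusted p was 0.293. Over time, nad9 was called without replicate 1 of untreated 3 h, at −0.96 between untreated 3 h and 0 h (limma adjusted p = 0.0391, and 0.23 over all arrays).

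Of the 7 probe sets of nad1, 5 were tested, and the differences between them were not tested. This gene encodes the membrane subunit at the junction of the peripheral arm and the membrane arm, and its transcript is joined in trans from separate precursors. With a compound, the changes of 257321_at, 257322_at, 257324_at and 257325_at lay between −0.27 and 0.34. Those of 257323_at, with a standard error of 0.34 the least precise of the members, were −0.75 and −0.26 with 7606596 and −0.12 and −0.98 with 5929745, at 3 h and 12 h. None was called. The 257323_at signal at 12 h was 111.4 and 75.8 with 7606596, 56.4 and 44.2 with 5929745, and 125.7 and 102.8 in untreated seedlings. Only the arrays of 5929745 lay below both untreated ones (limma adjusted p = 0.179).

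Against time, 3 of the 5 nad1 probe sets were higher at 12 h in at least one comparison. The signal of 257325_at in untreated seedlings was 70.8 and 117.7 at 0 h, 89.6 and 82.8 at 3 h, and 182.8 and 143.3 at 12 h. At 12 h it was 179.4 and 138.2 with 7606596 and 192.0 and 229.2 with 5929745. All 6 arrays of 12 h lay above all 8 earlier ones.

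Relative to 0 h, 257325_at rose at 12 h by 0.69 ± 0.24 with 7606596 (limma adjusted p = 0.0391), by 1.07 ± 0.24 with 5929745 (0.00229) and by 0.72 ± 0.24 in untreated seedlings (0.0255). Untreated seedlings at 12 h were 0.80 ± 0.24 above those at 3 h (limma adjusted p = 0.0151). Without replicate 1 of 0 h, the first 3 changes were 0.38, 0.76 and 0.41, and none was called (limma adjusted p = 0.368, 0.0554 and 0.29). Leaving out replicate 1 of the 12 h group itself gave a change of 0.52 with 7606596 and 0.56 in untreated seedlings (limma adjusted p = 0.245 and 0.191). The change between 12 h and 3 h was 0.75 without replicate 2 of 3 h and 0.64 without replicate 1 of 12 h (limma adjusted p = 0.0723 and 0.135).

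For 257322_at, the untreated signals were 113.4 and 126.3 at 0 h, 83.6 and 92.6 at 3 h, and 142.1 and 144.5 at 12 h, and those with 5929745 were 98.4 and 94.0 at 3 h and 190.5 and 170.2 at 12 h. Among these values the lowest were those of 3 h, while with 7606596 the 3 h signals were 120.8 and 97.6. Untreated seedlings at 12 h were 0.61 ± 0.19 above those at 3 h (limma adjusted p = 0.0187), and seedlings given 5929745 for 12 h were 0.53 ± 0.19 above those of 0 h (limma adjusted p = 0.0449). The first change was 0.55, 0.63 and 0.60 without replicate 1 of 3 h, replicate 1 of 12 h and replicate 2 of 12 h, and was then not called (limma adjusted p = 0.093, 0.0729 and 0.081). The second was 0.46 and 0.60 without replicate 1 or 2 of 0 h, and 0.46 and 0.61 without replicate 1 or 2 of 5929745 at 12 h, none of them called (limma adjusted p = 0.187, 0.0848, 0.197 and 0.078).

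The third, 257323_at, had untreated signals of 59.0 and 31.0 at 0 h, 70.3 and 96.7 at 3 h, and 125.7 and 102.8 at 12 h. It rose by 1.13 ± 0.34 between 0 h and 12 h (limma adjusted p = 0.0155). Without replicate 2 of 0 h the change was 0.79 (limma adjusted p = 0.17), and without replicate 1 of untreated 12 h it was 1.0 (limma adjusted p = 0.107). With 5929745 at 12 h, its change from 0 h was 0.15 (limma adjusted p = 0.787), beside 1.07 for 257325_at. The other 2 tested probe sets, 257321_at and 257324_at, had no called change with time over all arrays. Untreated replicate 1 of 3 h was low in 257321_at, at 45.0 against 123.7 in replicate 2. Without replicate 2, 257321_at was called at 3 h against 0 h (−1.15, limma adjusted p = 0.0226) and at 12 h against 3 h (1.03, limma adjusted p = 0.0132) in untreated seedlings. The change of 257324_at between untreated 12 h and 3 h was 0.83 without replicate 2 of 3 h and 0.91 without replicate 2 of 12 h, both called (limma adjusted p = 0.0496 and 0.0277). Without replicate 1 of 0 h, 257323_at was called with 7606596 at 12 h against 0 h (1.20, limma adjusted p = 0.0444).

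Complex IV, cytochrome c oxidase, was covered by its catalytic subunit cox1 and by cox2, which takes electrons from cytochrome c. The cox1 signal at 3 h was 404.1 and 342.9 with 7606596, 439.9 and 469.3 with 5929745, and 504.1 and 400.7 in untreated seedlings. At 12 h it was 615.9 and 408.1, 498.8 and 435.1, and 531.1 and 532.5 in the same order, beside 472.6 and 465.0 at 0 h. The groups overlapped except for 5929745 at 12 h, which lay below untreated.

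The cox1 changes with a compound lay between −0.26 and 0.01 and those of cox2 between 0.08 and 0.30, none called. With its group means spanning 1.42-fold from lowest to highest over the 7 groups, cox1 varied less than ccb382, whose means spanned 3.64-fold. Neither gene had a called change with time. Seedlings given 7606596 for 12 h had cox2 signals of 231.4 and 107.0, the widest pair of this probe set. Without the lower of these, replicate 2, cox2 was 0.85 above 0 h and called (limma adjusted p = 0.023).

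The probe set named orfX, given as mttB in RefSeq, encodes a TatC-like component of a twin-arginine protein translocase. At 3 h its signal was 137.2 and 163.4 with 7606596, 166.0 and 182.0 with 5929745, and 178.9 and 164.5 in untreated seedlings. At 12 h it was 158.6 and 105.5 with 7606596, 145.8 and 94.6 with 5929745, and 184.9 and 209.2 in untreated seedlings. All 4 treated arrays of 12 h lay below both untreated ones, but the changes of −0.55 (limma adjusted p = 0.246) and −0.67 (limma adjusted p = 0.134) were not called. The 0 h signals of 181.2 and 146.1 overlapped the arrays of 7606596 at 12 h and lay above those of 5929745, and the change of 5929745 at 12 h from 0 h was −0.42 (limma adjusted p = 0.157), and −0.69 and called without replicate 1 of that group (limma adjusted p = 0.0468).

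The maturase gene matR lies within the last intron of nad1 and encodes a factor for group II intron splicing. Its signal at 3 h was 46.2 and 59.5 with 7606596, 65.2 and 69.2 with 5929745, and 99.5 and 97.4 in untreated seedlings. At 12 h it was 65.4 and 54.7 with 7606596, 28.5 and 61.6 with 5929745, and 29.3 and 37.0 in untreated seedlings, beside 31.4 and 37.3 at 0 h. Treated arrays of 3 h lay between the 0 h and the untreated 3 h arrays. The changes at 3 h were −0.74 with 7606596 (limma adjusted p = 0.159) and −0.46 with 5929745 (limma adjusted p = 0.479), neither called. At 12 h they had the opposite sign, at 0.63 with 7606596 (limma adjusted p = 0.362) and 0.26 with 5929745 (limma adjusted p = 0.728), again not called. The difference between the 12 h and the 3 h effect was 1.37 for 7606596 and 0.72 for 5929745, neither called (limma adjusted p = 0.206 and 0.535).

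In untreated seedlings matR rose at 3 h by 1.19 ± 0.29 relative to 0 h (limma adjusted p = 0.0128), and at 12 h it had fallen by 1.22 ± 0.29 relative to 3 h (limma adjusted p = 0.00341). The second change stayed called with each array left out, between −1.34 and −1.11. The first was 1.10, 1.17 and 1.20 without replicate 1 of 0 h, replicate 1 of 3 h and replicate 2 of 3 h, and was then not called (limma adjusted p = 0.0877, 0.0653 and 0.056). Treated seedlings at 3 h and 12 h had no called change from 0 h, with values from 0.23 to 0.73. The untreated 3 h group had the highest mean of matR and the lowest mean of ccb382 of the 7 groups, and both of its arrays have the higher spike-in level.

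**Figure D3:**
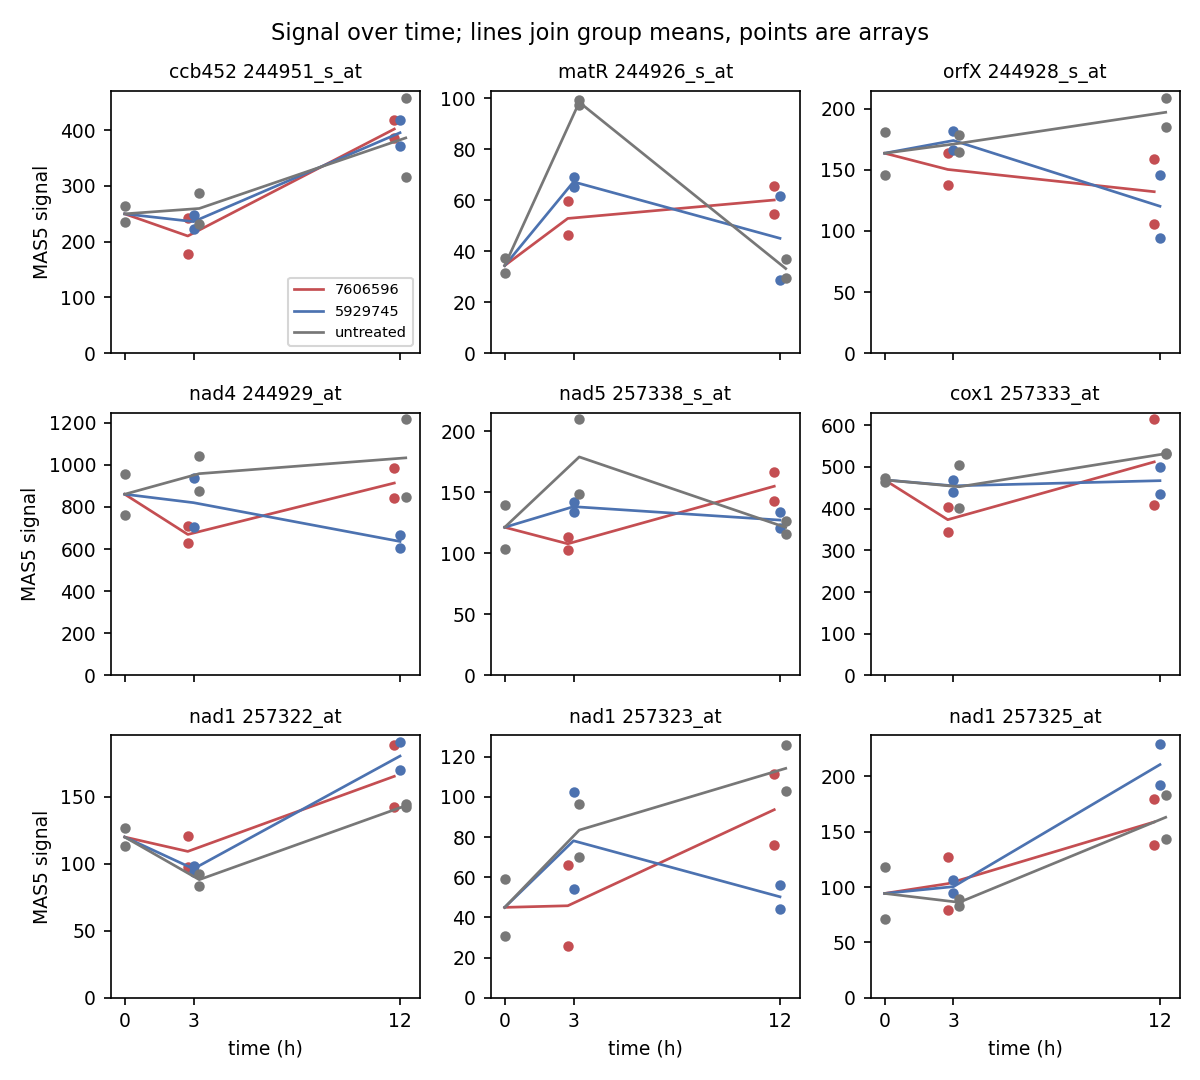
MAS5 signal at 0, 3 and 12 h of 9 mitochondrion-encoded probe sets (those called over time other than ccb382, and nad4, nad5, cox1 and orfX), with points for the 2 arrays of each group and lines joining group means for 7606596, 5929745 and untreated seedlings from a common 0 h. The 12 h arrays of ccb452 and of nad1 257325_at lie above all earlier ones, and matR is highest on the untreated 3 h arrays at 99.5 and 97.4.

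The compounds were also set against each other at the same dose and time, over the 18 members at both times. By limma 0 of 18 differed at 3 h, where 0.917% of all probe sets were called, and 0 of 18 at 12 h, where 0.848% were called. An unadjusted p under 0.05 was reached by 0 members at 3 h and by 1 at 12 h. The differences, 7606596 minus 5929745, ran from −0.64 to 0.29 at 3 h and from −0.38 to 0.71 at 12 h, with nad1 257323_at at both extremes of −0.64 and 0.71. For ccb382 the difference was −0.26 at 3 h (95% interval −0.74 to 0.22, limma adjusted p = 0.833) and −0.10 at 12 h (95% interval −0.58 to 0.38, limma adjusted p = 0.958). Over the members the 95% intervals reached from −1.36 to 0.83 at 3 h and from −0.89 to 1.43 at 12 h, so differences of that size are not shown to be absent.

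The change of either effect between 3 h and 12 h was called by limma for 0 of 18 members. Over all probe sets it was called for 0.132% with 7606596 and 0.113% with 5929745, and 3 members reached an unadjusted p under 0.05 with each compound.

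**Figure D4:**
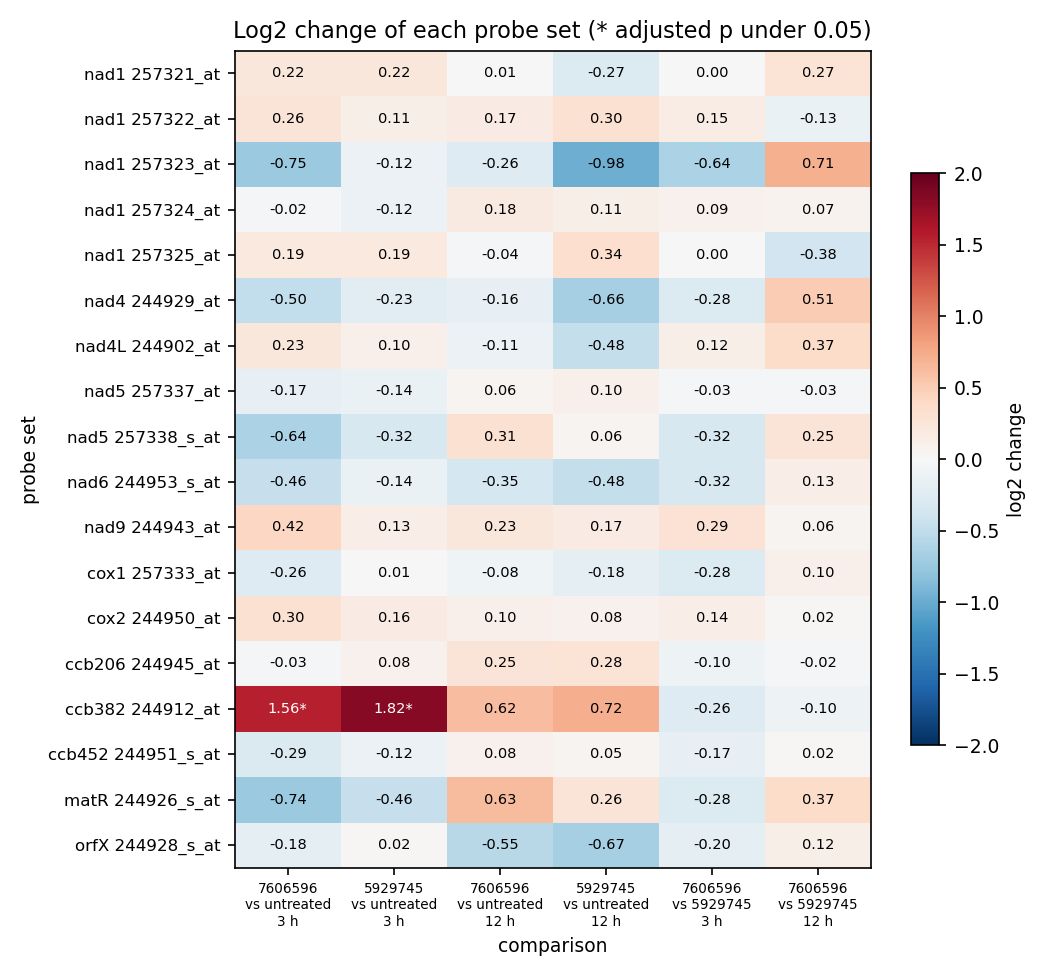
Log2 change of the 18 tested mitochondrion-encoded probe sets (rows) in the 4 comparisons of a compound with untreated seedlings and the 2 comparisons of 7606596 with 5929745 (columns), coloured from −2 to 2, with an asterisk at an adjusted p under 0.05. The only asterisks are those of ccb382 at 3 h, 1.56 with 7606596 and 1.82 with 5929745.

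The probe set of nad2, below the minimum signal, was fitted only with no minimum. Its signals were 27.0 and 16.0 with 7606596, 12.3 and 4.71 with 5929745, and 49.5 and 43.9 in untreated seedlings at 3 h. At 12 h they were 10.3 and 9.22, 20.8 and 19.3, and 12.5 and 10.4 in the same order, and at 0 h they were 38.5 and 41.0. In that fit nad2, a membrane subunit of complex I, was lower with 5929745 than in untreated seedlings at 3 h by −1.37 ± 0.27 (limma adjusted p = 0.0494), and the change with 7606596 was −0.76 (limma adjusted p = 0.16). In untreated seedlings it was lower at 12 h than at 0 h by −1.03 ± 0.27 (limma adjusted p = 0.0122) and than at 3 h by −1.19 ± 0.27 (limma adjusted p = 0.00515). Relative to 0 h it was also lower with 5929745 at 3 h by −1.20 ± 0.27 (limma adjusted p = 0.0168) and with 7606596 at 12 h by −1.11 ± 0.27 (limma adjusted p = 0.00902), and it changed by −0.63 with 5929745 at 12 h (limma adjusted p = 0.129). The mean signal of nad2 lay at the 20.7th percentile of the array, and several of its signals were below the offset of 16.

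A further 6 probe sets carry a mitochondrial gene together with a copy of it on nuclear chromosome 2, so their signals cannot be assigned to one genome. They cover atp1, atp9, cob, cox3 and, in 2 probe sets, nad1, and were not counted as members. None was called with a compound. At 3 h, atp1 and cox3 had positive changes and the other 4 probe sets negative ones with both compounds. The smallest adjusted p was that of atp9, a ring subunit of the ATP synthase, at −0.50 with 7606596 (limma adjusted p = 0.078) and −0.38 with 5929745 (0.245). For cob and the nad1 probe sets the changes lay between −0.25 and −0.06. The atp1 signal, for the alpha subunit of the ATP synthase, was 831.3 and 677.4 with 7606596, 904.7 and 816.7 with 5929745, and 731.2 and 484.5 in untreated seedlings at 3 h, with changes of 0.33 and 0.52 (limma adjusted p = 0.32 and 0.157). That of cox3 was 98.0 and 115.5, 119.2 and 133.3, and 52.8 and 90.4 in the same order, with changes of 0.52 and 0.73 (limma adjusted p = 0.223 and 0.13). In untreated seedlings at 12 h relative to 0 h, atp9 was higher by 0.43 ± 0.16 (limma adjusted p = 0.0425) and cob, cytochrome b of complex III, was lower by −0.64 ± 0.25 (limma adjusted p = 0.0495).

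Of 89 nuclear genes listed for the same organelle, 37 had a singly named probe set and 35 were tested. They were subunits of complexes I to V, cytochrome c, cytochrome c maturation, alternative respiration and stress genes, and factors of mitochondrial transcription, splicing and RNA turnover. With 7606596 at 3 h, 1 of 35 was called (2.86%, against 5.02% of all probe sets), CYTC-1 (AT1G22840), one of the cytochrome c genes whose product the Ccm factors complete. Its signal was 4495 and 4246 with 7606596, 4182 and 3505 with 5929745, and 2996 and 2983 in untreated seedlings. It was 0.54 ± 0.10 higher with 7606596 than in untreated seedlings (limma adjusted p = 0.00443), and the change with 5929745 was 0.36 (limma adjusted p = 0.0983). As with ccb382, the untreated arrays were low: CYTC-1 had 4040 and 4198 at 0 h and fell by 0.46 ± 0.10 in untreated seedlings at 3 h (limma adjusted p = 0.00783).

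At 12 h, 1 of 35 was called with 7606596 (2.86%, against 1.54% of all probe sets), AT1G51650, the epsilon subunit of the ATP synthase. Its signal was 1342 and 1505 with 7606596, 1667 and 1417 with 5929745, and 2136 and 2169 in untreated seedlings. The change was −0.59 ± 0.13 with 7606596 (limma adjusted p = 0.0226) and −0.48 with 5929745 (limma adjusted p = 0.0676, not called). With 5929745, 0 of 35 were called by limma at 3 h and at 12 h, where 1.15% and 1.4% of all probe sets were called. An unadjusted p under 0.05 was reached by 5 and 7, and the share of all probe sets at that level was not counted. The only measured nuclear gene for cytochrome c maturation had changes of −0.06 and −0.34 with 7606596 and 5929745 at 3 h. The median over the 35 was 0.10 and 0.02 at 3 h and 0.00 and −0.03 at 12 h, with 7606596 and 5929745.

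The genes of the other organelle, the plastid, are given for comparison, and the difference between the sets was not tested. Of 69 plastid-encoded genes, 16 were higher and 6 lower with 7606596 at 3 h (31.9% called, against 5.02% of all probe sets) and 17 higher and 3 lower at 12 h (29.0%, against 1.54%). With 5929745, 14 were higher and 2 lower at 3 h (23.2%, against 1.15%) and 7 higher and 10 lower at 12 h (24.6%, against 1.4%). The 18 mitochondrion-encoded members had 1, 0, 1 and 0 called in the same 4 comparisons (5.56% where 1 was called), with a median standard error of 0.24, against 0.14 for the plastid-encoded genes.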

How the data were processed

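Per the submitters' processing notes, the deposited values are MAS5 signals, a linear signal intensity that the authors scaled array by array. Averaged over its central 96%, every array came to 499.8. After 64 controls were removed from 22810 probe sets, those whose mean signal reached the 30th percentile entered the fit (15922). The model, limma 3.58.1 in R 4.3.3 on log2(signal + 16), had 7 group means and a variance trend (7 residual and 11.4 prior degrees of freedom). Tests were two-sided, with Benjamini-Hochberg adjustment per comparison over all probe sets kept. Errors beside signals are SD and errors beside changes are standard errors. Precision is limited by the small number of arrays.

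The annotation gave several genes for 503 probe sets and none for 8730. The members and lists were chosen with earlier results of these data known. Signals on every array were due for members called in a comparison of a compound with untreated seedlings or of both compounds, and for the brightest of each role without one. Those of other members were added after their values were seen. From the nuclear lists, up to 3 called genes each could be named.

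Alternatives were offsets of 1 and 64, no signal minimum, no variance trend, quantile and median scaling, the replicate number as a block, and leaving out each array. Same-numbered arrays did not deviate together (correlations from −0.197 to 0.117 over 21 pairs of groups), so the numbers were not taken as pairs. Tested on data simulated for 5929745 against untreated at 3 h over 15922 probe sets, the fit recovered 33 of 67 changes of 1.5-fold, 57 of 67 of 2-fold and 66 of 66 of 4-fold, with 6 false among 162 calls. The simulated noise was normal, with an SD smoothed over probe sets of similar level, and held no difference between arrays like that of the spike-ins. Recovery and false calls in the real data may therefore be worse.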

Additional observations from a re-analysis of the deposited data

How the results depend on the processing

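With no signal minimum, the number of members called was 2 for 5929745 against untreated at 3 h (1 with the minimum), 1 for 5929745 at 3 h against 0 h (0 with it) and 2 for 5929745 at 12 h against 0 h (4 with it). The nuclear genes called were then 3 for untreated 3 h against 0 h (6 with the minimum), 0 for 7606596 at 3 h against 0 h (1 with it) and 0 for 5929745 at 3 h against 0 h (2 with it). With an offset of 1, the count for 7606596 at 3 h against 0 h was 2. The other 102 of 105 member counts and 35 of 39 nuclear counts stayed within 1.5 times.

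With single arrays left out, member counts ran from 1 to 2 for 7606596 against untreated at 3 h, from 1 to 1 for 5929745 at 3 h, from 0 to 0 for 7606596 at 12 h and from 0 to 1 for 5929745 at 12 h. Against 0 h they ran from 1 to 2 (untreated, 3 h), 1 to 4 (untreated, 12 h), 1 to 3 (7606596, 12 h) and 0 to 3 (5929745, 12 h), and from 1 to 6 for untreated 12 h against 3 h. Without replicate 1 of 0 h, the counts were 1 for untreated 3 h, 2 for untreated 12 h, 1 for 7606596 at 12 h and 0 for 5929745 at 12 h. Without replicate 1 of untreated 12 h they were 1 against 0 h and 1 against 3 h, and without replicate 1 of 7606596 at 12 h the count was 1. Without either replicate of 5929745 at 12 h it was 2. In the remaining comparisons (7606596 and 5929745 at 3 h against 0 h, the compounds against each other, and the change of each effect with time) the count stayed at 0.

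Of 19 called member results, none reversed. Among 133 values with another offset, minimum, variance prior, scaling or block, 121 stayed called and 12 did not. These 12 were the changes of nad1 257325_at against 0 h (untreated and 7606596, 12 h), of ccb452 between untreated 12 h and 3 h, and of ccb382 and nad1 257322_at with 5929745 at 12 h against 0 h, with adjusted p from 0.0508 to 0.0938. Among 76 values with 1 array left out, 44 stayed called. The replicate block kept all 19 called and all 15 member counts. With that block, ccb382 changed by 1.56 with 7606596 (limma adjusted p = 0.000642) and by 1.82 with 5929745 (limma adjusted p = 0.000634) at 3 h. Scaling to the same median gained 1 call, nad4 with 5929745 at 12 h against 0 h (−0.51, limma adjusted p = 0.0357), and no scaling moved the median of all probe sets by over 0.1. The cause of these shifts was not tested. Dim signals limit the members: 5 of 23 were below the minimum, and changes near 1.5-fold were often missed in the simulation. The simulation covered all 15922 probe sets, and recovery among the members alone was not tested. Standard errors of the members had a median of 0.24 and reached 0.34, against a median of 0.16 over all 15922.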

Other observations

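The 4 nuclear genes described next rose by 12 h with either compound and without one, and they were chosen after their values were seen. The small heat shock protein gene AT5G51440, whose product is imported into mitochondria, had signals of 257.4 and 518.3 with 7606596, 643.1 and 426.5 with 5929745, and 571.2 and 453.7 in untreated seedlings at 12 h, beside 89.0 and 63.5 at 0 h. Relative to 0 h it rose by 2.07, 2.56 and 2.52 on the log2 scale in that order. AT2G21640, a marker of oxidative stress in mitochondria, rose by 1.59, 1.43 and 1.54, and AT5G14580, the mitochondrial polynucleotide phosphorylase that degrades polyadenylated RNA, by 1.53, 1.45 and 1.54. For AT5G15700, an organellar RNA polymerase, the changes were 1.01, 1.21 and 1.16. All 12 of these changes were called by limma, with adjusted p up to 0.0251. AT5G51440 and AT2G21640 belong to the 5 tested genes for alternative respiration and stress. The median change of these 5 from 0 h to 12 h was 0.01, 0.08 and 0.24 in the same order. Their lowest changes were −0.72, −0.67 and −0.81, and 1 of the 5 was called lower with 7606596 and in untreated seedlings. The cytochrome c gene CYTC-2 fell by 0.64, 0.89 and 0.88 at 12 h, each called. Of the 35 tested nuclear genes, 9 were higher and 3 lower at 12 h than at 0 h with 7606596 (34.3% called, against 28.7% of all probe sets), 8 higher and 3 lower with 5929745 (31.4%, against 29.5%), and 12 higher and 3 lower in untreated seedlings (42.9%, against 35.1%). These shares are near those of all probe sets, and no shift of the list is read from them. For AT5G51440, AT2G21640, AT5G14580 and AT5G15700, no change between a compound and untreated seedlings was called at 3 h or 12 h.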
